A study of Homo sapiens with 6 samples.

Results

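The 38 genes described here encode adhesion proteins of the synapse and their close relatives, namely neurexins, neuroligins, contactins, contactin-associated proteins, CADM proteins, leucine-rich repeat proteins, receptor phosphatases, CSMD proteins and IgLON proteins. They were taken from a list of named genes outside chromosome 7, and all 38 were found among the 19974 protein-coding genes on chromosomes 1 to 22 and X. The series concerns the NEXT complex, which hands unstable nuclear RNAs to the RNA exosome, and its relation to H3K27me3. ACHN cells, a human renal carcinoma line, were profiled by chromatin immunoprecipitation and sequencing in 2 genotypes: ZCCHC8-KO, in which the gene for the NEXT scaffold protein ZCCHC8 was targeted, and ZCCHC8-WT, which served as the control. Each genotype had 1 H3K27me3 library, 1 EZH2 library and 1 input library. The labels do not say whether the KO cells came from a single clone, and peak lists hold no measure of ZCCHC8 protein or of the cells' identity.

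Adhesion proteins of the synapse bridge the gap between an axon and its target. Presynaptic neurexins and receptor phosphatases bind postsynaptic neuroligins, leucine-rich repeat proteins and other partners, while contactins and IgLON proteins are immunoglobulin proteins held to the membrane by a lipid anchor. Most of these genes are used mainly by neurons. H3K27me3 is a histone mark of repressed chromatin that is laid down by EZH2, the enzyme of the Polycomb complex PRC2, and outside the nervous system neuronal genes are among its known carriers.

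Each antibody had 1 library per genotype, so every difference is given as a description, without a replicate check or a test. A gene's window was the gene with 5 kb on both sides, and its level was the number of bases in the window that lay under peaks. A gene was called lower or higher in KO where the covered bases differed at least 2-fold and the larger value was at least 1000 bp. Intervals are exact 95% Clopper-Pearson intervals, which cover counting error only. The KO lists held 69840 H3K27me3 peaks and 19566 EZH2 peaks, against 93095 and 30734 in the WT lists, and the number of reads behind each list is not known here. A list made from fewer reads and a list made from less enriched chromatin cannot be told apart in these files.

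Most of the adhesion genes had at least 1 H3K27me3 peak in both genotypes, though the peaks covered little of each window. The median covered share over the 38 windows was 0.268% in KO and 0.566% in WT. A peak stood in the windows of 26 of the 38 genes in KO and of 28 in WT, with 24 in both. Of all protein-coding genes, 23.2% had an H3K27me3 peak in KO and 26.1% in WT. The adhesion genes are long, with a median of 323187 bp (6415 to 2298757) against 24170.5 bp for all genes, and a long window has more room for a peak. Among the 22 members of 200 kb or more, 19 were marked in KO and 20 in WT, against 54.4% and 63% of all genes of that length outside chromosome 7. This class does not match length fully, since 8 of the 22 members reached 1 Mb, against 64 of 1303 genes. All 8 were marked in both genotypes, against 90.6% and 95.3% of the 64. Of the 14 members of 200 kb to 1 Mb, 11 were marked in KO and 12 in WT, against 52.5% and 61.3%. EZH2 peaks stood in 26 windows in KO and 27 in WT, with 23 in both, where 18.4% and 27% of all genes had one. Of the 22 long members, 20 had an EZH2 peak in KO and 20 in WT, against 62.5% and 79.3% of genes of that length. Of the 14 members of 200 kb to 1 Mb, 12 had one in each genotype, against 60.9% and 78.3%. All 8 of 1 Mb or more had one in each genotype, against 93.8% and 98.4%.

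The 38 windows together held fewer peaks in KO, as did the lists as a whole. They held 488 H3K27me3 peaks in KO and 733 in WT, a KO/WT ratio of 0.666 (0.593 to 0.748). Over the whole lists the ratio was 0.750, outside chromosome 7 it was 0.803, and over genes of 200 kb or more outside chromosome 7 it was 0.742. One gene, CNTN1, set much of the distance: without it the ratio was 0.759. The covered bases were 139476 in KO and 216459 in WT, a ratio of 0.644 that became 0.757 without CNTN1, beside 0.732 for the genome. EZH2 peaks numbered 86 in KO and 140 in WT, a ratio of 0.614 (0.464 to 0.809), against 0.636 over the whole lists and 0.603 over the long genes. These ratios depended on the authors' peak scores: with scores of 7 or more they were 0.174 for H3K27me3 and 0.145 for EZH2, and with the WT list cut to as many top-scoring peaks as the KO list held they were 1.08 and 1.37.

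The peaks did not thin out evenly. For H3K27me3, 20 genes reached 1000 bp in either genotype. Of these, 7 were called lower in KO and 3 higher, where 33.1% of all genes of that minimum were called lower and 14.6% higher (30.6% and 15.2% outside chromosome 7). All 7 lower genes and 1 higher gene were among the 15 members of 200 kb or more with that minimum, and of all genes of that length outside chromosome 7, 32.5% were called lower and 10.2% higher. For EZH2, 19 genes reached the minimum, of which 10 were called lower and 1 higher, against a background of 44.5% lower and 11.6% higher (40.9% and 12.8% outside chromosome 7). Of the 15 long members with that minimum 8 were called lower and 0 higher, against 46.3% and 8.71%. Both counts of lower genes were near those shares. The median KO minus WT difference in the covered share of a window was 0 for the 38 genes and 0 for all genes, for either antibody. Most of all genes had no peak of the antibody in either genotype, so their median of 0 says little. Over all genes that reached 1000 bp the median was -0.384 percentage points for H3K27me3 and -0.314 for EZH2. Which genes were called depended on the authors' peak scores. With scores of 7 or more, all 7 lower H3K27me3 calls were kept, the 3 higher ones were lost, and 15 genes were called lower in all. Those added were CADM3, CNTN5, DPP10, LRRTM3, LRRTM4, NRXN3, NTM and OPCML. That filter left 28.6% of the H3K27me3 peaks of the whole KO list and 69.8% of the WT list. It thus works toward lower calls and against higher ones, and cannot check either. The share of all genes called lower under it was not computed. With the WT list cut as above, 5 of the 7 lower calls (CNTN1, CADM2, CSMD3, LRFN5 and CNTNAP5) and all 3 higher ones were kept. Of the 10 lower EZH2 calls, 4 were kept with scores of 7 or more (CNTNAP5, FLRT2, LSAMP and NTM) and 2 with the WT list cut (FLRT2 and LSAMP). The differences at single genes and their pattern along them are described below. Such patterns were not looked for across other genes of that length. Whether they are particular to these genes was not tested.

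**Figure D1:**
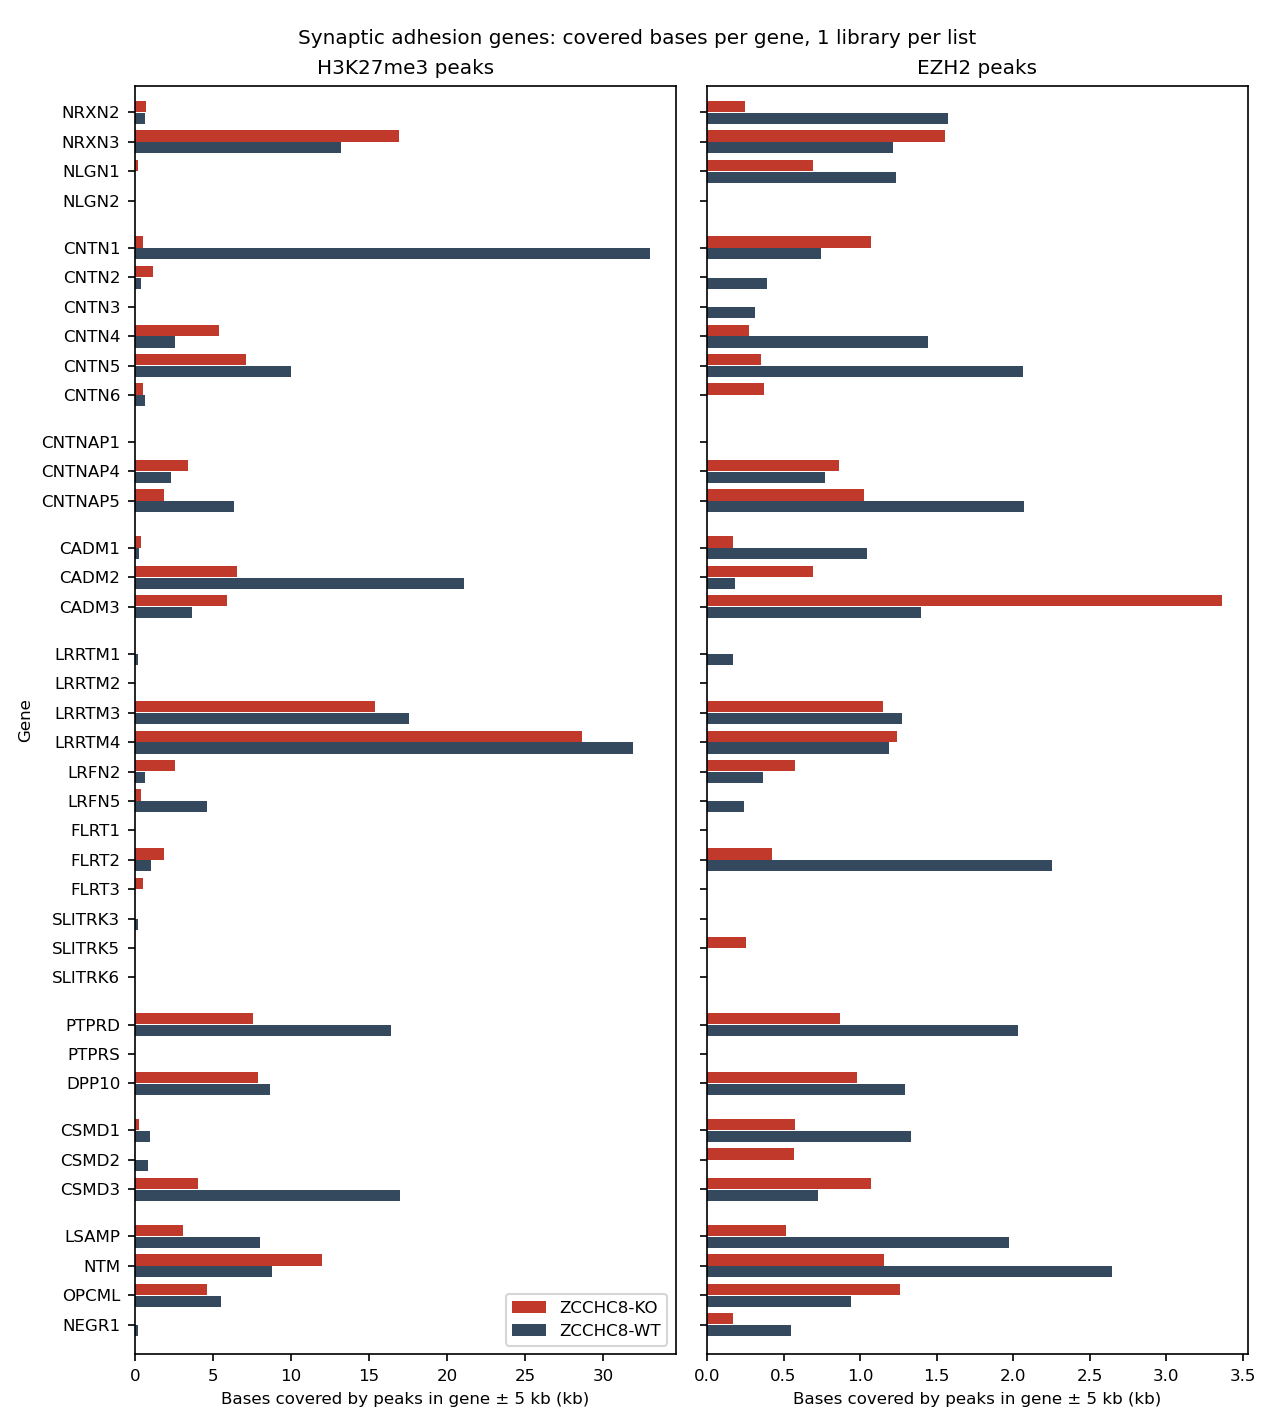
Bases covered by H3K27me3 peaks (left, kb) and EZH2 peaks (right, kb) in the window of each of the 38 genes, grouped by family, with KO above WT and 1 library per bar. CNTN1 has the longest WT bar of H3K27me3 beside a KO bar of 524 bp, while LRRTM4, LRRTM3 and NRXN3 have long bars in both genotypes, and CADM3 has the longest EZH2 bar, in KO.

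**Figure D2:**
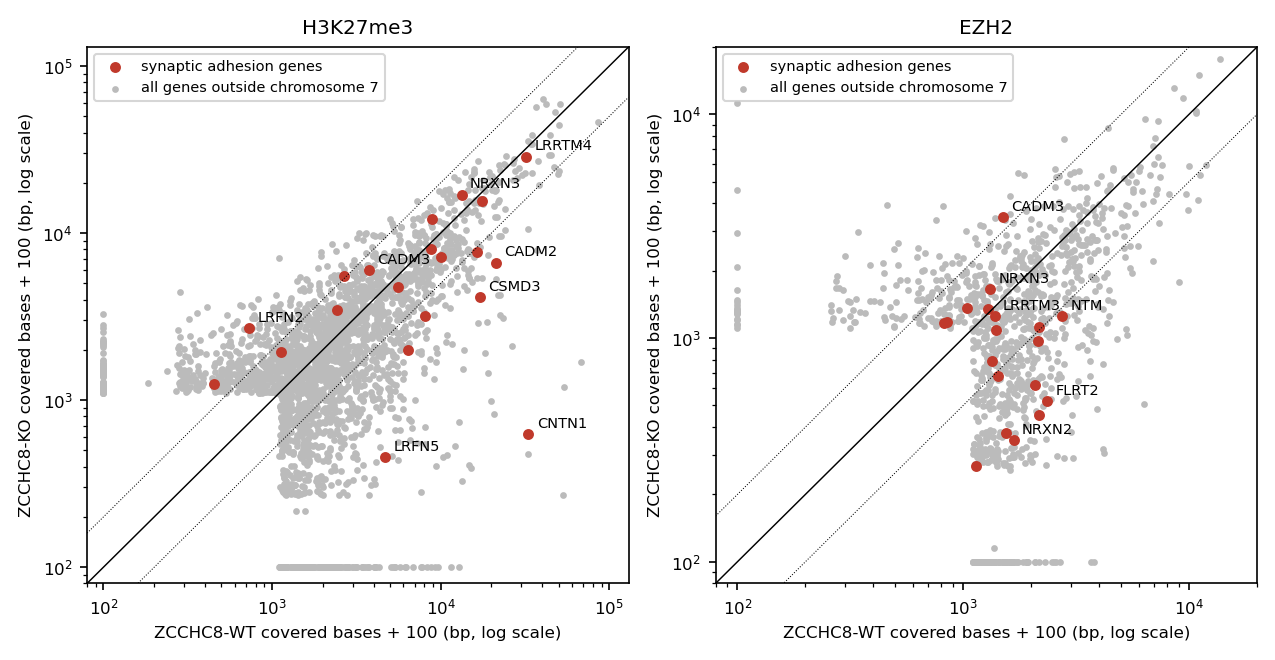
H3K27me3 (left) and EZH2 (right) covered bases per gene window in KO (vertical, log scale, 100 bp added) against WT (horizontal, same scale), for the synaptic adhesion genes (red) and all protein-coding genes outside chromosome 7 (grey) with at least 1000 bp in either genotype. The solid line marks equal values and the dotted lines a 2-fold difference; CNTN1 and LRFN5 lie far under the lower dotted line for H3K27me3, and CADM3 lies above the upper one for EZH2.

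Peaks of both antibodies were seen around the starts of some adhesion genes, but not directly upstream of them. A RefSeq promoter sequence (GRCh38.p14) was at hand for 30 of the 38 genes. The start it gives lay inside the gene by 135745 bases at CNTN1, 86230 at LRRTM3, 3192 at NLGN2 and 263 at CNTN2, and at the gene end elsewhere. Within 5 kb of those starts an H3K27me3 peak was found at 9 genes in KO and 11 in WT (30% and 36.7%), against 12.1% and 13.7% of all genes outside chromosome 7 and 20.1% and 23.4% of the long ones. An EZH2 peak was found at 3 genes in KO, namely CADM3, FLRT2 and SLITRK5, and at 7 in WT, namely CADM3, CNTN2, LSAMP, PTPRD, CNTN5, LRFN5 and FLRT2. These were 10% and 23.3% of the 30 genes. Of all genes outside chromosome 7 the shares were 6.45% in KO and 9.33% in WT, and of the long ones 10.5% and 17.7%. None of the 30 windows of 250 bases directly upstream of a start overlapped a peak in any of the 4 lists, and among 15813 promoters the shares that did were 0.449% (KO) and 0.575% (WT) for H3K27me3 and 0.373% (KO) and 0.512% (WT) for EZH2. At such low shares no overlap among 30 genes says little.

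The Polycomb complex PRC2 is known to gather at sequences rich in CG dinucleotides, so the 250 bases upstream of 4 starts are shown with each CG in capitals. CADM3 and FLRT2 are shown as the only members whose EZH2 peaks overlapped between the genotypes, CNTN5 as a gene with an H3K27me3 peak upstream of the start in both genotypes, and PTPRS as the member with the most CG and no peak in any list. The windows are chr1:159171365-159171614 (CADM3, + strand), chr14:85529894-85530143 (FLRT2, + strand), chr11:99020699-99020948 (CNTN5, + strand) and chr19:5340813-5341062 (PTPRS, - strand), each written 5′ to 3′ in the direction of its gene.
CADM3: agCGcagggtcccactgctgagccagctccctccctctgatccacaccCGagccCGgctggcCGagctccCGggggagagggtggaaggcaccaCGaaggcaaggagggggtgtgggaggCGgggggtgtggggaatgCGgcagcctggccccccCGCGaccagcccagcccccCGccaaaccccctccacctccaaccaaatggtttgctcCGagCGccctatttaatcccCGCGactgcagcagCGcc
FLRT2: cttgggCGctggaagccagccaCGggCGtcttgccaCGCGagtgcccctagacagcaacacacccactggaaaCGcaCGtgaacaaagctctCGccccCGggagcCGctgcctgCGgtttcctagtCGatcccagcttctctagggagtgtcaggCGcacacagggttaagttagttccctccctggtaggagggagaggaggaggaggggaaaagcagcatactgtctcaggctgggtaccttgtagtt
CNTN5: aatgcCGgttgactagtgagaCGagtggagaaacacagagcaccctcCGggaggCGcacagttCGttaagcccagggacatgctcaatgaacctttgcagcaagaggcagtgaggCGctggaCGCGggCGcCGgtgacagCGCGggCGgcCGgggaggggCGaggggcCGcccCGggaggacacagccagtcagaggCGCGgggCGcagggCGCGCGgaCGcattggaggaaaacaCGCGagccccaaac
PTPRS: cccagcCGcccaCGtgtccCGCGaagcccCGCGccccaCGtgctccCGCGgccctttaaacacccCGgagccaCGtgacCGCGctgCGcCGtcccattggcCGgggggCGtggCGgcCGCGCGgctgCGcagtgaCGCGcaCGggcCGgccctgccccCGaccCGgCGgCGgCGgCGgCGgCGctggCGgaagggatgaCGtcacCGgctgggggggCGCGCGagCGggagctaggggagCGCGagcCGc
CG was counted once per site, since it reads the same on both strands. CADM3 had 16 CG in these bases, FLRT2 13, CNTN5 26 and PTPRS 44, and 54.9%, 62.2%, 25.6% and 0.949% of all promoters had at least as many. Over the 30 genes the median was 10.5 CG (2 to 44), against 17 for all promoters. The 14 genes with a peak of any list within 5 kb of the start had a median of 13, and the 16 without had a median of 9. A CG-rich upstream window was thus seen both beside peaks, at CNTN5, and with none, at PTPRS.

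The peaks nearest these starts were short and mostly at different places in KO and WT. At CADM3, counting bases from the start with a minus sign for upstream, EZH2 peaks in KO ran from -4698 to -3955, from -686 to -480 and from 2235 to 2409. In WT they ran from -2210 to -1805, from -1613 to -1440 and from 4093 to 4255. None of the 3 KO peaks at the CADM3 start overlapped a WT peak there. At FLRT2, 1 KO EZH2 peak, from 2268 to 2689, overlapped the WT peak from 2535 to 2863. WT had EZH2 peaks at FLRT2 also from 4086 to 4275 and from 4771 to 5068. At CNTN5, H3K27me3 peaks ran from -1743 to -1253 in KO and from -1917 to -1507 in WT, and a WT EZH2 peak from -1716 to -1472 overlapped the WT H3K27me3 peak. CNTN5 had no KO EZH2 peak within 5 kb of its start.

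Of the neurexins and neuroligins, the core pair of presynaptic receptor and postsynaptic partner, NRXN3 was the one with many H3K27me3 peaks. These peaks, spread over a gene of 1697919 bp, took 0.99% of its window in KO and 0.773% in WT. All genes of 1 Mb or more outside chromosome 7 together had 0.673% and 1%. NRXN3 held 62 H3K27me3 peaks over 16908 bp in KO and 49 peaks over 13206 bp in WT, and 7 EZH2 peaks in each genotype over 1552 bp in KO and 1217 bp in WT. Each long gene was cut into 4 segments of equal length, numbered from its lower end. The surplus of KO lay in segment 1 of NRXN3, which includes its start, with 26 peaks in KO and 11 in WT, while the other segments held 9 to 15 peaks in each genotype. The surplus turned with scores of 7 or more: segment 1 then held 2 peaks in KO and 3 in WT, and the KO minus WT difference over NRXN3 was -0.216 percentage points, against 0.217 with all peaks. NRXN2 had 2 H3K27me3 peaks in KO and 3 in WT, and its EZH2 cover was called lower, with 1 peak over 250 bp in KO and 5 peaks over 1573 bp in WT, a call that was lost with scores of 7 or more and with the WT list cut. The NRXN2 window also reaches SLC22A12 and RASGRP2. NLGN1 had 1 H3K27me3 peak in KO and none in WT, with 3 EZH2 peaks over 690 bp in KO and 6 over 1235 bp in WT. Below NLGN1, the flank of 500 kb held 10950 bp of H3K27me3 in KO and 44907 bp in WT, while the flank above held no H3K27me3 in either genotype. The gene body, almost free of the mark, thus lay between covered and bare ground. NLGN2 had no peak in any list.

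The contactins held the largest single difference. CNTN1, at chr12:40692439-41072415, encodes an axonal immunoglobulin protein that pairs with contactin-associated proteins. CNTN1 held 1 H3K27me3 peak over 524 bp in KO and 91 peaks over 33010 bp in WT, a ratio of peak numbers of 0.011 (0.000275 to 0.0628). The covered share of the CNTN1 window was 0.134% in KO and 8.46% in WT, and among 19036 genes outside chromosome 7 it ranked 6 by the deficit of covered bases in KO. The widest H3K27me3 peak of WT in the 38 windows, 1095 bp, and the highest WT score, 14, were both in CNTN1. EZH2 at CNTN1 came to 4 peaks over 1074 bp in KO and 4 peaks over 746 bp in WT, a ratio of peak numbers of 1 (0.186 to 5.37). That EZH2 difference turned with scores of 7 or more to -0.148 percentage points, against 0.0841 with all peaks.

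The deficit at CNTN1 was part of a wider one. From MUC19, a mucin gene below CNTN1, to PDZRN4, a gene for a PDZ and RING domain protein above it, 26 H3K27me3 peaks covered 7136 bp in KO and 220 peaks covered 77998 bp in WT. The stretch held 7 peaks in KO and 163 in WT with scores of 7 or more, and with the WT list cut it held 26 in KO and 177 in WT. In MUC19 there were 5 peaks in KO and 37 in WT. In PDZRN4 there were 16 peaks in KO and 60 in WT. In the 500 kb on either side of the CNTN1 window the covered bases had a KO/WT ratio of 0.141, against 0.691 for chromosome 12. The steepest contrast lay in the lowest 100 kb of CNTN1, with 0 bp in KO and 12916 bp in WT. The start used above for CNTN1 lies 135745 bases from its lower end, so these 100 kb are upstream of that start. LRRK2, next to MUC19, was nearly free of the mark, with no peak in KO and 1 peak in WT, so the WT block had an edge between LRRK2 and MUC19.

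**Figure D3:**
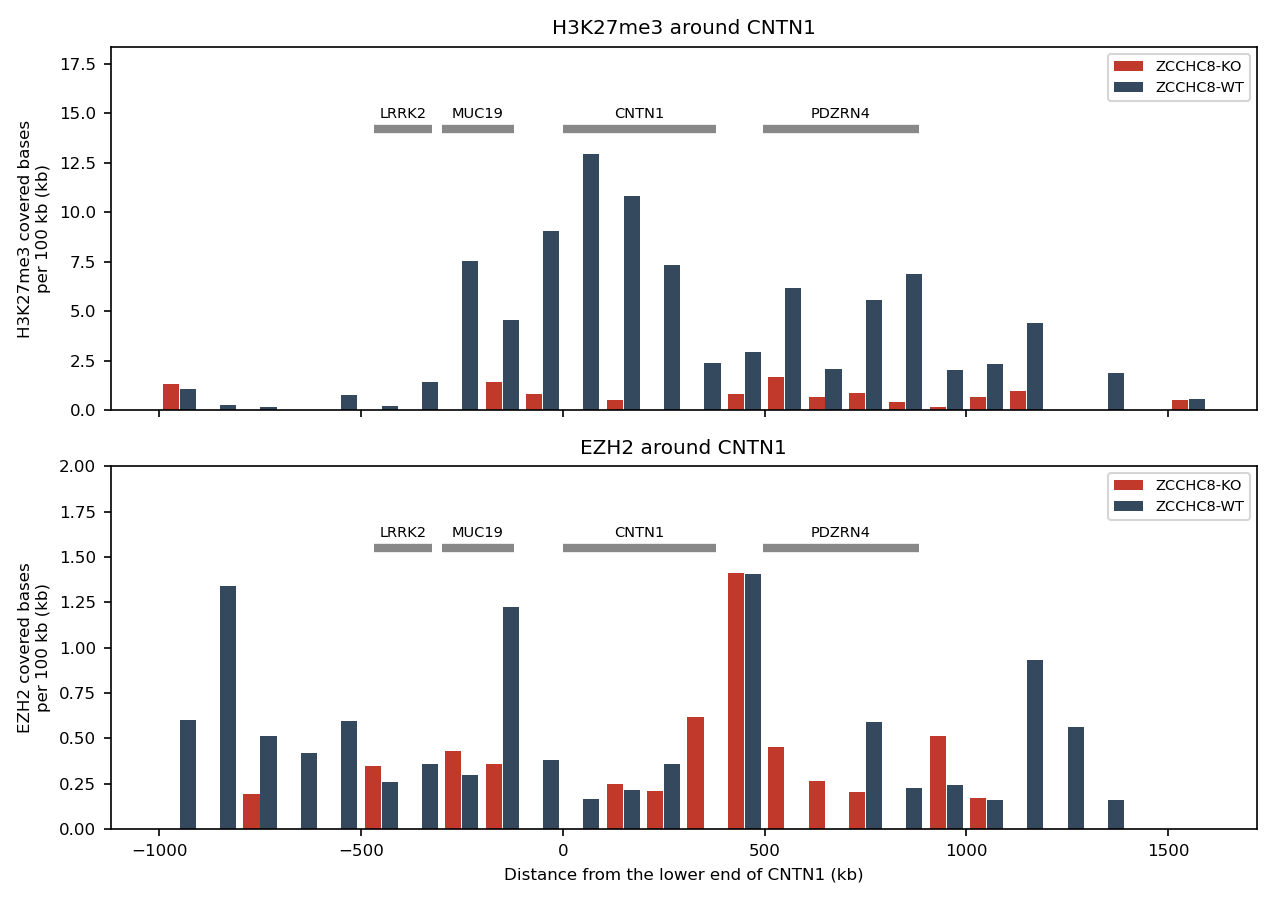
H3K27me3 (top) and EZH2 (bottom) covered bases per 100 kb (kb) around CNTN1, by distance from the lower end of the gene (kb), with KO in red and WT in dark blue and genes as grey bars. The WT H3K27me3 block spans MUC19, CNTN1 and PDZRN4 and reaches 12916 bp in 100 kb, where KO has 0 bp; the EZH2 bars stay under 2 kb per 100 kb and show no such block.

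The other contactins did not share that pattern. CNTN4, a contactin of the olfactory and visual systems, was called higher for H3K27me3, with 19 peaks over 5415 bp in KO and 11 peaks over 2558 bp in WT. The 500 kb on either side of CNTN4 went the other way, with a KO/WT ratio of covered bases of 0.184, against 0.791 for chromosome 3. EZH2 cover at CNTN4 was called lower, with 1 peak over 277 bp in KO and 7 peaks over 1444 bp in WT. This direction was opposite to that of H3K27me3 in the gene, but the EZH2 call was lost with scores of 7 or more and with the WT list cut. CNTN2 was called higher for H3K27me3 on 5 peaks over 1151 bp in KO and 2 peaks over 351 bp in WT, and had 2 EZH2 peaks in WT and none in KO. Its ratio of H3K27me3 peak numbers, 2.5, had an interval of 0.409 to 26.3, and for CNTN4 the ratio was 1.73 (0.781 to 4.02). Both intervals include 1 and also 0.803, the ratio of the lists outside chromosome 7, while that of CNTN4 lies above 0.750, the ratio of the whole lists. The intervals cover counting error only and are no test of a difference. Neither gene was called higher when peaks with a score under 7 were left out, nor CNTN2 without flanks.

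CNTN5 differed by less than 2-fold for H3K27me3, with 26 peaks over 7107 bp in KO and 36 peaks over 9985 bp in WT, while its EZH2 cover was called lower, with 2 peaks over 351 bp in KO and 10 peaks over 2063 bp in WT. CNTN5 was, with scores of 7 or more, called lower for H3K27me3 and not for EZH2, and with the WT list cut the EZH2 call was lost too. CNTN6 had 2 H3K27me3 peaks in each genotype, and 2 EZH2 peaks in KO with none in WT. CNTN3 had 1 EZH2 peak, in WT, and no H3K27me3. Over the 6 contactins H3K27me3 covered 14736 bp in KO and 46545 bp in WT, and most of the WT bases were in CNTN1.

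Contactin-associated proteins join contactins in the membrane of the axon. CNTNAP5 was called lower for both marks. It held 8 H3K27me3 peaks over 1884 bp in KO and 23 peaks over 6323 bp in WT. For EZH2 it held 4 peaks over 1024 bp in KO and 9 peaks over 2070 bp in WT, a call that was lost with the WT list cut and with KO scaled by the ratio of the gene's chromosome. CNTNAP5, PTPRD and LSAMP were the 3 members called lower for both antibodies. CNTNAP4 differed by less than 2-fold for both antibodies, with 13 H3K27me3 peaks in KO and 9 in WT, and 4 EZH2 peaks in KO and 3 in WT. CNTNAP1, whose window also reaches EZH1, had no peak in any list.

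The CADM proteins, immunoglobulin proteins that bind like or related CADM proteins across the synapse, differed from each other. CADM2 held 19 H3K27me3 peaks over 6552 bp in KO and 75 peaks over 21075 bp in WT, a ratio of peak numbers of 0.253 (0.145 to 0.424). The deficit at CADM2 had a sharp boundary inside the gene. Segments 1 to 3 of the gene, which lies at chr3:84958989-86074429, held 1 peak in KO and 57 in WT, while segment 4 held 18 peaks over 6340 bp in KO and 17 peaks over 4490 bp in WT. The widest KO peak of the 38 windows, 1030 bp, lay in segment 4. With scores of 7 or more, segments 1 to 3 held 0 peaks in KO and 28 in WT, and segment 4 held 3 in KO and 8 in WT. CADM2 EZH2 cover was 3 peaks over 692 bp in KO and 1 peak over 186 bp in WT.

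CADM3 was the most densely covered of the 38 genes in KO. H3K27me3 took 14.1% of its window in KO and 8.76% in WT, with 18 peaks over 5872 bp in KO and 10 peaks over 3653 bp in WT. EZH2 took 8.06% in KO and 3.35% in WT, with 10 peaks over 3362 bp in KO and 5 peaks over 1395 bp in WT. The H3K27me3 difference at CADM3 turned to -4.56 percentage points with scores of 7 or more, against 5.32 with all peaks, and was called lower. The EZH2 difference was the only call of higher EZH2 cover in KO among the 38 genes, and among all genes outside chromosome 7 it ranked 35 by the excess of covered bases of EZH2. The ratio of EZH2 peak numbers, 2 (0.623 to 7.46), has an interval that includes 1 and also 0.636, the ratio of the whole EZH2 lists. The call was lost when peaks with a score under 7 were left out. The window also holds ACKR1, a chemokine receptor gene of red blood cells and vessels. Below CADM3, the flank of 500 kb held 24938 bp of H3K27me3 in KO and 24729 bp in WT. CADM1, known also as a tumour suppressor of epithelia, had 1 H3K27me3 peak in each genotype and an EZH2 cover called lower, with 1 peak over 168 bp in KO and 5 peaks over 1043 bp in WT. The CADM1 call was lost with scores of 7 or more, with the WT list cut and without flanks.

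The leucine-rich repeat proteins include genes with many peaks and 3 of the 6 genes without a peak. LRRTM3 and LRRTM4 are postsynaptic partners of neurexins. LRRTM4 had the most H3K27me3 bases of all 38 genes in KO, with 98 peaks over 28638 bp in KO and 106 peaks over 31897 bp in WT. LRRTM3 had 50 peaks over 15378 bp in KO and 47 peaks over 17537 bp in WT, which is 8.29% of its window in KO and 9.45% in WT, the highest WT share of the 38. This closeness was lost with scores of 7 or more, where the KO minus WT difference was -1.94 percentage points at LRRTM4 and -5.2 at LRRTM3, against -0.415 and -1.16 with all peaks, and both were called lower. EZH2 at LRRTM4 came to 5 peaks over 1243 bp in KO and 6 peaks over 1187 bp in WT, and at LRRTM3 to 4 peaks in each genotype.

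LRRTM3 lies inside CTNNA3, a gene for an alpha-catenin, so its peaks cannot be assigned to one gene, and the host gene showed a boundary as at CADM2. Below the LRRTM3 window, CTNNA3 held 5 H3K27me3 peaks over 1261 bp in KO and 102 peaks over 33489 bp in WT. Above it, CTNNA3 held 92 peaks over 29754 bp in KO and 101 peaks over 34358 bp in WT. With scores of 7 or more the stretch below held 0 peaks in KO and 65 in WT, and the stretch above 19 in KO and 70 in WT, so the cover above was then no longer close to equal.

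Among the other leucine-rich repeat genes, LRFN5 was called lower and LRFN2 higher for H3K27me3. LRFN5 and LRFN2 encode postsynaptic proteins that take part in synapse formation. LRFN5 had 2 peaks over 355 bp in KO and 17 peaks over 4586 bp in WT, a ratio of peak numbers of 0.118 (0.0132 to 0.496). The 500 kb on either side of LRFN5 had a KO/WT ratio of covered bases of 0.0471, against 0.857 for chromosome 14, so its surroundings were lower too. LRFN2 had 10 peaks over 2585 bp in KO and 3 peaks over 633 bp in WT, a ratio of 3.33 (0.858 to 18.8), and was not called higher with scores of 7 or more. FLRT2, a ligand of the UNC5 and latrophilin receptors, had an EZH2 cover called lower, with 1 peak over 422 bp in KO and 7 peaks over 2252 bp in WT, beside an H3K27me3 cover of 5 peaks over 1852 bp in KO and 3 peaks over 1036 bp in WT.

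The remaining leucine-rich repeat genes had few or no peaks. FLRT3 had 2 H3K27me3 peaks in KO and none in WT, and SLITRK5 had 1 EZH2 peak in KO and none in WT. SLITRK3 had 1 H3K27me3 peak in WT, and LRRTM1 had 1 H3K27me3 and 1 EZH2 peak in WT, with none in KO. At counts this low a difference was not detectable. LRRTM2, FLRT1 and SLITRK6 had no peak in any list and, with NLGN2, CNTNAP1 and PTPRS, made up the 6 bare members. Their median length was 16335.5 bp, against 895933 bp for the 21 genes with a peak in all 4 lists. LRRTM1, LRRTM2, FLRT1 and FLRT3 lie inside CTNNA2, CTNNA1, MACROD1 and MACROD2.

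The receptor phosphatases PTPRD and PTPRS organise presynaptic sites, and DPP10 is an auxiliary subunit of potassium channels. PTPRD held 27 H3K27me3 peaks over 7560 bp in KO and 59 peaks over 16394 bp in WT, and 4 EZH2 peaks over 867 bp in KO and 10 peaks over 2034 bp in WT. The H3K27me3 call was lost when the WT list was cut to as many top-scoring peaks as the KO list held, as it was for LSAMP, and the EZH2 difference at PTPRD then turned to the other side. PTPRD gave another boundary. Its segments 2 and 3 together, chr9:8888935-10038312, held 1 H3K27me3 peak in KO and 35 in WT. Segment 4, which ends at the start of the gene, held 25 peaks over 7121 bp in KO and 25 peaks over 7966 bp in WT. With scores of 7 or more the contrast between the segments was small, with 0 peaks in KO and 18 in WT in segments 2 and 3, and 1 in KO and 13 in WT in segment 4. With the WT list cut, segments 2 and 3 held 1 peak in KO and 20 in WT, and segment 4 held 25 in KO and 16 in WT. DPP10 differed little with all peaks, with 29 H3K27me3 peaks over 7893 bp in KO and 33 peaks over 8645 bp in WT, but was called lower with scores of 7 or more.

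**Figure D4:**
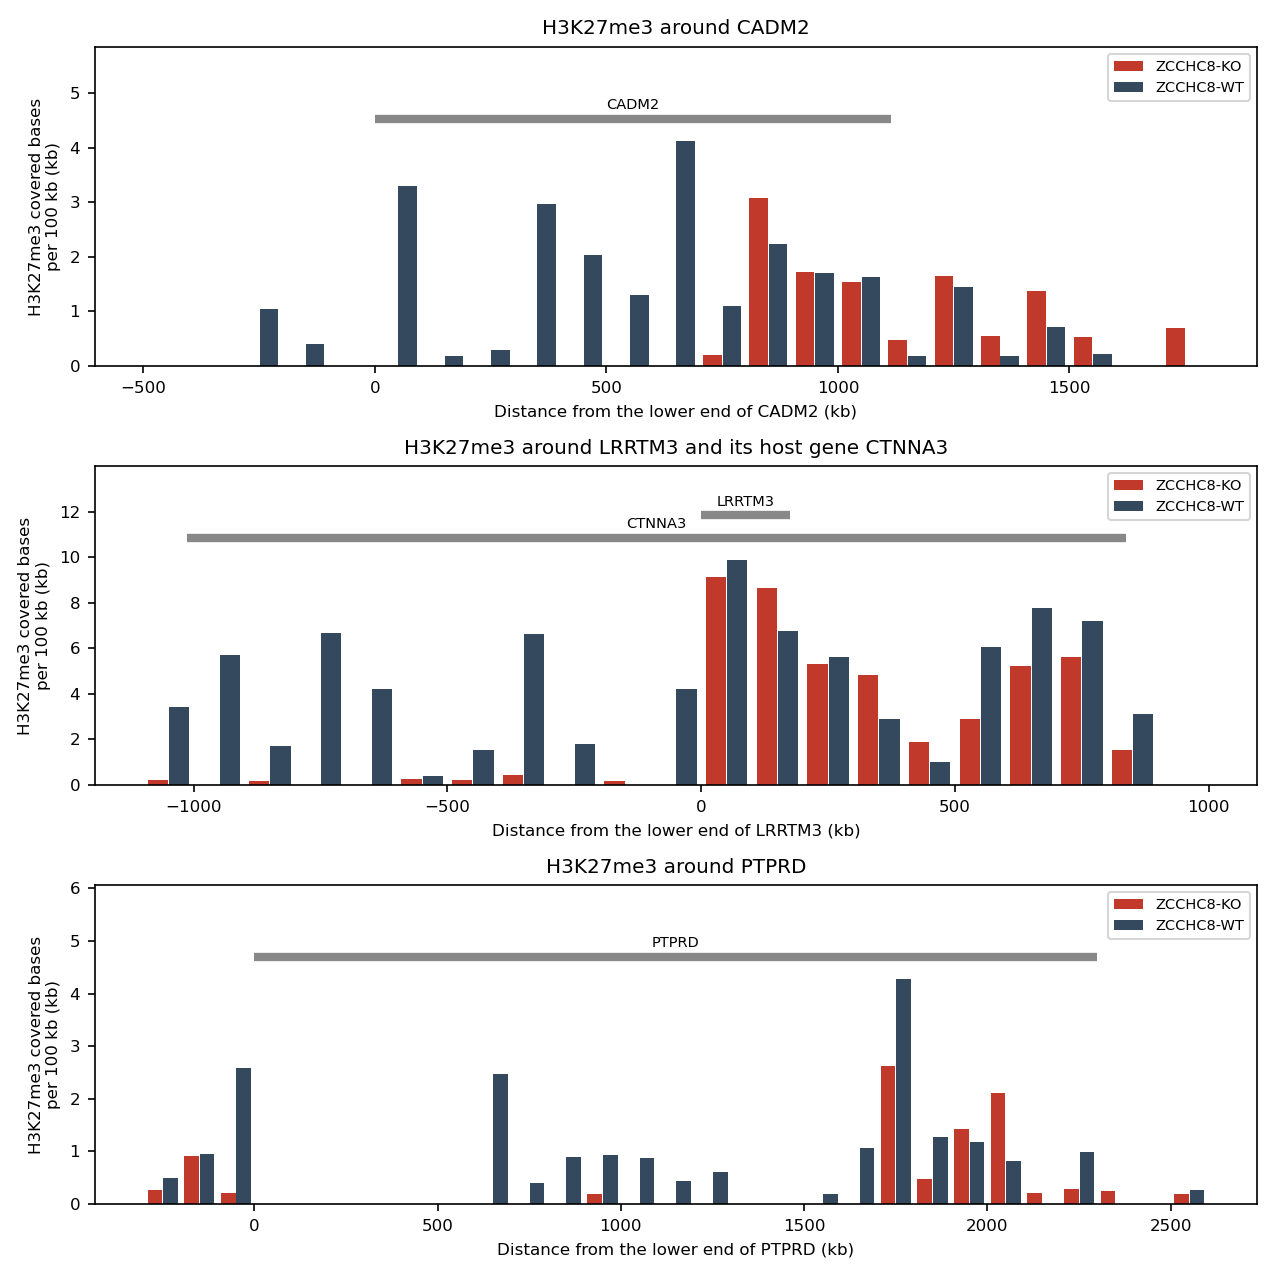
H3K27me3 covered bases per 100 kb (kb) along CADM2 (top), LRRTM3 inside CTNNA3 (middle) and PTPRD (bottom), by distance from the lower end of the named gene (kb), with KO in red, WT in dark blue and genes as grey bars. In each panel a stretch with cover almost only in WT gives way to one with similar cover in both genotypes, counting peaks of all scores: CADM2 has 1 peak in KO and 57 in WT in segments 1 to 3, and 18 in KO and 17 in WT in segment 4.

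The CSMD proteins are large membrane proteins with complement-like domains. CSMD3 held 18 H3K27me3 peaks over 4045 bp in KO and 59 peaks over 17020 bp in WT, and 4 EZH2 peaks in each genotype. At CSMD3 the deficit was found in all 4 segments, from 742 bp in KO against 1583 bp in WT in the lowest to 1564 bp in KO against 3398 bp in WT in the highest. The 500 kb on either side of it had a KO/WT ratio of covered bases of 0.0974, against 0.774 for chromosome 8. CSMD1 had 1 H3K27me3 peak in KO and 4 in WT, and its EZH2 cover, 3 peaks over 576 bp in KO and 4 peaks over 1331 bp in WT, was called lower, but not under any of 4 other settings (scores of 7 or more, the WT list cut, no flanks, KO scaled by the ratio of the gene's chromosome). CSMD2 had 4 H3K27me3 peaks in WT with none in KO, and 3 EZH2 peaks in KO with none in WT.

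IgLON proteins are small adhesion proteins of neuronal membranes. LSAMP held 10 H3K27me3 peaks over 3086 bp in KO and 26 peaks over 8020 bp in WT, and 2 EZH2 peaks over 514 bp in KO and 8 peaks over 1970 bp in WT. The H3K27me3 deficit at LSAMP lay in segment 1, with 5 peaks in KO and 20 in WT, while segments 3 and 4 held 2 and 3 peaks in KO against 2 and 4 in WT, and segment 2 held none. NTM held 41 H3K27me3 peaks over 12014 bp in KO and 33 peaks over 8759 bp in WT. Within NTM the direction alternated: segment 3 had 4 peaks in KO and 19 in WT, and segments 1, 2 and 4 had 11, 19 and 7 in KO against 5, 9 and 1 in WT. The difference over NTM turned with scores of 7 or more to -0.237 percentage points, against 0.333 with all peaks, and was called lower. For EZH2, NTM had 5 peaks over 1157 bp in KO and 13 peaks over 2642 bp in WT, the most WT bases of the 38 genes, and this difference too turned to the other side with the WT list cut.

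OPCML, the neighbour of NTM, had 18 H3K27me3 peaks in KO and 24 in WT, and 5 EZH2 peaks in each genotype. With scores of 7 or more OPCML was called lower for H3K27me3. NEGR1 had 1 H3K27me3 peak in WT with none in KO, and 1 EZH2 peak in KO with 3 in WT. The IgLON genes as a group covered 19739 bp of H3K27me3 in KO and 22509 bp in WT, a ratio of 0.877, while for EZH2 the ratio was 0.508.

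Single peaks in the adhesion genes were seldom found at the same place in both genotypes. Of the H3K27me3 peaks, 46 of 488 in KO (9.43%, 6.98 to 12.4) and 45 of 733 in WT (6.14%, 4.51 to 8.13) overlapped a peak of the other genotype by at least 1 bp. Over the whole lists the shares were 21.4% in KO and 15.9% in WT, and in genes of 200 kb or more outside chromosome 7 they were 16% in KO and 12% in WT. LRRTM3 and LRRTM4 alone gave 24 of the 46 shared KO peaks and 23 of the 45 shared WT peaks. In the other genes 22 of 340 KO peaks (6.47%, 4.1 to 9.63) and 22 of 580 WT peaks (3.79%, 2.39 to 5.69) were shared. Of EZH2 peaks, 2 of 86 in KO (2.33%, 0.283 to 8.15) and 2 of 140 in WT (1.43%, 0.173 to 5.07) were shared, 1 each at CADM3 and FLRT2, against 7.97% and 5.12% of the whole lists. In genes of 200 kb or more outside chromosome 7 the EZH2 shares were 6.14% in KO and 3.82% in WT, both inside those intervals. What 2 libraries of the same genotype would share is not known.

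The peaks in these windows had low scores, a number that the authors gave each peak without a definition in the labels or lists. A score of 7 or more was held by 14.1% of the H3K27me3 peaks in KO and 54% in WT, against 28.6% and 69.8% of the whole lists. For EZH2 the shares were 11.6% in KO and 49.3% in WT, against 21.1% and 65.5%. In genes of 200 kb or more outside chromosome 7 they were 22.2% in KO and 63.7% in WT for H3K27me3, and 14.3% and 61.1% for EZH2. The highest scores in the 38 windows were 11 in KO and 14 in WT for H3K27me3 and 9 in KO and 17 in WT for EZH2. The EZH2 peak with the score of 17 lay in NTM. With peaks under 7 left out of all lists, 2.78% of the WT H3K27me3 peaks in these windows overlapped a KO peak.

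Most EZH2 peaks in the adhesion genes did not overlap an H3K27me3 peak, as over the whole lists. They overlapped an H3K27me3 peak of the same genotype in 8 of 86 cases in KO (9.3%, 4.1 to 17.5) and 11 of 140 in WT (7.86%, 3.99 to 13.6), against 19% and 14% of the whole lists and 14% and 9.35% of those in genes of 200 kb or more outside chromosome 7. Both shares of the long genes lie inside the intervals of the adhesion genes. CADM3 held 3 of the 8 in KO and 2 of the 11 in WT. The median distance from an EZH2 peak to the nearest H3K27me3 peak was 13127 bp in KO and 9733 bp in WT, against 2985 bp and 4170 bp over the whole lists. In genes of 200 kb or more outside chromosome 7 it was 5466.5 bp in KO and 8134 bp in WT. Of the 7 genes called lower for H3K27me3, 3 were also called lower for EZH2 (CNTNAP5, PTPRD and LSAMP), while CNTN1 and CSMD3 had 4 EZH2 peaks in each genotype, CADM2 had 3 in KO and 1 in WT, and LRFN5 had none in KO and 1 in WT.

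The covered share is given by gene length. In the 8 members under 20 kb, H3K27me3 covered 0.301% of the windows together in KO and 0.217% in WT, against 0.768% and 0.81% for all genes of that length outside chromosome 7. In the 8 members of 20 to 200 kb, which include CADM3, LRRTM3 and CNTN2, it covered 2.82% in KO and 2.44% in WT, against 0.593% and 0.725%, while the median gene of these 8 had 1.32% in KO and 0.646% in WT. In the 14 members of 200 kb to 1 Mb, which include CNTN1 and LRRTM4, it covered 0.643% in KO and 1.13% in WT, against 0.583% and 0.773%. In the 8 members of 1 Mb or more, such as PTPRD and CSMD1, it covered 0.446% in KO and 0.753% in WT, against 0.673% and 1%. The medians of this longest class went the other way, with 0.469% in KO and 0.725% in WT for the members, against 0.329% and 0.608%, so no order against other genes follows from these shares.

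Other synaptic adhesion genes, a list of 34 that includes the teneurins and the latrophilins, were marked at fewer genes. H3K27me3 peaks stood at 11 of the 34 in KO and 16 in WT, where 23.2% and 26.1% of all genes had one. Gene length was not taken into account here. Of the 11 genes that reached 1000 bp, 7 were called lower and 0 higher, against 33.1% and 14.6% of all genes. The covered bases had a KO/WT ratio of 0.502, or 0.65 without the genes on chromosome 7. CNTNAP2, a contactin-associated protein gene on chromosome 7, held 62 peaks over 15611 bp in KO and 197 peaks over 62623 bp in WT. For EZH2, 8 of the 34 reached the minimum, with 3 called lower and 1 higher, against 44.5% and 11.6%. The higher one was ADGRB1, an adhesion receptor of the brain, with 4 peaks over 1217 bp in KO and 1 peak over 159 bp in WT.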

How the data were processed

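ACHN chromatin was crosslinked, sheared and immunoprecipitated, per the labels' protocols, and reads were processed with cutadapt 1.9.3 and Bowtie2 2.2.4 on hg38, per the submitters' processing notes. For the peak caller and the read depth, the sources used here give nothing. Of 6 samples, 4 had a deposited peak list and the 2 inputs entered only as controls of the lists. The fifth column holds the peak length in bp as deposited by the authors, and the sixth a score that the authors deposited without defining it, which was used only to describe or filter peaks. Lines repeated up to 81 times were counted once. The names of the peaks hold a p threshold of 1e-3.

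Covered bases, overlaps of at least 1 bp and distances came from pandas 2.3.3, NumPy 2.4.6 and SciPy 1.17.1 under Python 3.11.15, and figures from matplotlib 3.10.9. Gene positions came from RefSeq GRCh38.p14. Covered bases and peak numbers were checked against a direct count on simulated peaks. The calls were checked on a copy of each WT list from which all peaks of 200 genes were removed. For each antibody 200 of 200 were called lower, among 19974 genes. The 2-fold rule fixed that outcome, so it checks the code and says nothing about false calls between libraries. Groups came from the title labels, with 1 library per group, so no test between genotypes was made. The members and lists were chosen with earlier results of these data known. Full values are given for the members with the largest deficits and excesses of covered bases or covered share, those with EZH2 near a gene end and those with the most covered bases, and the others more briefly. The stretch from MUC19 to PDZRN4 and the grouped segments of CADM2 and PTPRD were chosen after their values were seen. Alternatives changed the score threshold, list length, window, minimum, fold, scaling, required overlap and members used. One gene of the list of other synaptic adhesion genes is not reported here by itself.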

Additional observations from a re-analysis of the deposited data

How the results depend on the processing

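Of 72 counts, ratios and shares recomputed under other settings, 42 stayed within 1.5 times the reported count or within the counting interval, and 30 did not. With scores of 7 or more, H3K27me3 was called lower at 15 genes and higher at 0, its peak ratio was 0.174 and its shared WT peaks 2.78%; EZH2 was lower at 6 and higher at 0, with a ratio of 0.145. With the longer list cut to the top-scoring peaks, as many as the shorter list held, H3K27me3 was higher at 6 genes, with a ratio of 1.08 and 8.2% shared; EZH2 was lower at 2 and higher at 4, with a ratio of 1.37. These settings thus moved the peak ratios to opposite sides. Scores may not mean the same in KO and WT lists, whose lowest scores were 4 and 5. With 5 kb around both gene ends only, H3K27me3 was lower at 2 genes and higher at 0, with 9.3% shared. EZH2 was then lower at 0 and higher at 0, but only CADM3 reached the minimum, with 1126 bp in KO and 1029 bp in WT. The EZH2 peak ratio was 0.292, and 20.8% of WT EZH2 peaks were on H3K27me3. A minimum of 500 bp gave 3 genes higher for EZH2, and 2000 bp gave 5 lower. A fold of 1.5 gave 5 genes higher for H3K27me3. KO scaled to the genome gave 5 higher for H3K27me3, and 6 lower and 3 higher for EZH2; scaled to each gene's own chromosome it gave 6 lower and 2 higher for EZH2. Requiring 50% of the peak covered gave 2.73% of WT H3K27me3 peaks shared. Without CNTN1, a setting chosen after seeing the data, the H3K27me3 peak ratio was 0.759. The share of all genes called was not computed under these settings, so their counts of calls stand without a background. The cause of these moves was not tested.

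Of 264 differences at named members, 221 stayed called or stayed uncalled, 40 gained or lost a call and 3 reversed. CNTN4 H3K27me3 was -0.0153 percentage points with scores of 7 or more, and EZH2 at PTPRD was 0.00611 and at NTM 0.0136 points with the longer list cut. CNTN1, CADM2, CSMD3, LRFN5 and CNTNAP5 kept their lower H3K27me3 call with the longer list cut, no flanks, own-chromosome scaling and scores of 7 or more. CNTN1 stayed between -8.49 and -6.1 points. Keeping a lower call with scores of 7 or more says little, since that filter left a smaller share of KO than of WT peaks. LSAMP lost the lower call with the list cut, and PTPRD with the list cut and with own-chromosome scaling. Of the 10 lower EZH2 calls, 8 were lost with the list cut, 6 with scores of 7 or more, 4 with own-chromosome scaling and 2 without flanks. The peak numbers of single stretches under other scores were added after seeing the data. The higher H3K27me3 calls at CNTN4, CNTN2 and LRFN2, and the higher EZH2 call at CADM3, were lost with scores of 7 or more. That filter works against higher calls. No paired analysis was possible because each group had 1 library, and for the same reason no replicate could be left out. Depth is unknown, so a gene listed without peaks may carry the mark below what the lists could show.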

Other observations

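Synaptic scaffold and vesicle genes, a list of 34 that work inside the nerve ending or under the postsynaptic membrane, held H3K27me3 peaks at 16 genes in KO and 17 in WT. Of all genes, 23.2% in KO and 26.1% in WT had one, and gene length was not taken into account. Of the 11 genes that reached 1000 bp in either genotype, 5 were called lower in KO and 0 higher, against 33.1% and 14.6% of all genes, and the covered bases had a KO/WT ratio of 0.735. RIMS1, an organiser of vesicle release sites, held 10 peaks over 3021 bp in KO and 75 peaks over 23407 bp in WT. LIN7A, a small scaffold gene on chromosome 12, held no peak in KO and 14 peaks over 3666 bp in WT. DLG2, a postsynaptic scaffold, had similar cover in both genotypes, with 127 peaks over 38626 bp in KO and 112 peaks over 34529 bp in WT. UNC13C, a vesicle priming gene, had 18 peaks over 4723 bp in KO and 9 peaks over 2588 bp in WT.

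For EZH2, 16 of these 34 genes had a peak in KO and 19 in WT, where 18.4% and 27% of all genes had one. Of the 6 that reached the minimum 4 were called lower and 0 higher, against 44.5% and 11.6% of all genes. GPHN, the gephyrin gene of inhibitory synapses, held 6 EZH2 peaks over 1226 bp in KO and 11 peaks over 3159 bp in WT. PCLO, a large protein of the presynaptic active zone whose gene is on chromosome 7, held 3 peaks over 717 bp in KO and 8 peaks over 2486 bp in WT. The postsynaptic scaffold gene DLGAP3 held 4 peaks over 991 bp in KO and 1 peak over 206 bp in WT.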
